A study of Mus musculus with 2 samples.

Results

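Ribosomal RNA fragments were examined in the small RNA of fetal mouse liver from Ago2ADH and wild type mice. They are the reads that the deposited table assigns to the repeat-track class rRNA, and each distinct read sequence was taken as 1 fragment. Of 2344366 distinct reads in the table, 34414 carried this class. They were listed under 3 repeat names, SSU-rRNA_Hsa with 13371 distinct reads, LSU-rRNA_Hsa with 19665 and 5S with 1378. SSU and LSU stand for the small and the large ribosomal subunit, and the ending Hsa marks a repeat consensus of human origin, here matched to mouse sequence.

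The Ago2ADH mice carry an Argonaute 2 without catalytic activity, and the other mice were wild type. Both groups were of strain B6/129, and their livers were taken at E18.5, late in gestation. From each genotype 1 library was made from total RNA after a gel cut aimed at 19 to 30 nt, so the differences given here lack a check by replicates. How many animals went into a library is not given in the sources used here.

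Ribosomal RNA forms the core of the ribosome. In mammals the 18S rRNA of the small subunit and the 5.8S and 28S rRNAs of the large subunit are cut from a shared precursor made by RNA polymerase I. The 5S rRNA of the large subunit is made separately by RNA polymerase III. Argonaute 2 binds small RNAs and can slice a transcript that pairs with them. Because rRNA is the most abundant RNA of a cell, pieces of it are common in small RNA libraries.

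The reads overlap so densely that longer sequences could be built from them, and positions below are counted from 1 at the first base of these. The SSU reads, joined with reads listed under a RefSeq 18S entry, gave a single sequence of 1871 nt, called 18S here. It placed 99.9% of the SSU reads. The 5S reads gave 121 nt, which placed 98.5% of them. Reads under the LSU name were joined with reads listed under a RefSeq 28S entry. They fell into 15 separate stretches, which together placed 99.5% of the LSU reads. Some of the stretches rest mostly on reads of the 28S entry. In the reference annotation (GRCm38, GENCODE M21) an rRNA gene with 18S sequence, CT010467.1, is listed on the minus strand at chr17:39846353-39848827, and 89.9% of the SSU reads matched the strand opposite to the annotated one. RefSeq lists an 18S pseudogene, Rn18s-rs5, at chr17:39846354-39848202. Most reads cannot be assigned to 1 gene copy. Only 18.4% of SSU reads, 24.8% of LSU reads and 0.521% of 5S reads match the genome once. The median number of matches, with each distinct read weighted by its count, was 2, 3 and 53.

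The sequences on which the results turn are shown first, in DNA letters from 5′ to 3′. At the 5′ end of 18S, reads with the same first base stop at several lengths, and the capitals mark the 3 bases by which the most abundant read is longer than the next one.
18S 1 to 21: tacctggttgatcctgccAGT
18S 1 to 18: tacctggttgatcctgcc
18S 1 to 15: tacctggttgatcct

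Inside 18S, a long read rose in Ago2ADH while short reads lying within it fell, and the capitals mark the bases it shares with the most abundant of the short ones.
18S 1438 to 1463: ccaacttcTTAGAGGGACAAGTGGCg
18S 1446 to 1462: TTAGAGGGACAAGTGGC
18S 1443 to 1459: ttcTTAGAGGGACAAGT

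The next reads come from 3 other stretches of 18S where reads were less abundant in Ago2ADH than in wild type.
18S 113 to 133: ggttcctttggtcgctcgctc
18S 237 to 256: aacccggtgagctccctccc
18S 1035 to 1054: gaaagtcggaggttcgaaga

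The LSU reads below are the most abundant pair and a nested pair with opposite calls. In the longer read of each pair, the capitals mark the bases of the shorter one, which in stretch 3 is itself in capitals.
LSU stretch 1, 217 to 235: cctcgacacaagggtttgt
LSU stretch 1, 215 to 235: gcCCTCGACACAAGGGTTTGT
LSU stretch 3, 415 to 440: gtcCTCGCGTCGGGGTCGGGGCacgc
LSU stretch 3, 418 to 436: CTCGCGTCGGGGTCGGGGC

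The Ago2ADH library held 7046197 reads and the wild type library 7599870, all of 15 to 34 nt. Levels are reads scaled to a library total of 1000000 (RPM). A log2 ratio is Ago2ADH over wild type, and the range after it in parentheses is an exact binomial 95% interval for the 2 counts. PCR amplification without molecular identifiers means that intervals cover counting error only. Fragments of the Ago2 mRNA, listed under Eif2c2, numbered 318 in Ago2ADH and 229 in wild type. These mRNA fragments do not show the mutation and are no check of the genotype. Summed hepatocyte marker fragments stood at 10739 RPM in Ago2ADH and 9996 RPM in wild type over 6 genes, and all 6 had reads in both libraries. Within this set Afp (0.29) and Trf (0.32) stood above wild type and Ttr near it (0.01). Alb (-0.04), Apoa1 (-0.12) and Serpina1a (-0.88, -1.09 to -0.67) stood below it. The 6 erythroid marker genes, also all detected, summed to 1114 RPM in Ago2ADH and 1761 RPM in wild type. Of 4 myeloid markers 1, Elane, was at 0 in both libraries, and their sums were 45.6 RPM in Ago2ADH and 46.3 RPM in wild type. The 3 endothelial markers summed to 11.8 RPM in Ago2ADH and 13.4 RPM in wild type. The 3 stellate markers summed to 5.96 RPM in Ago2ADH and 10.1 RPM in wild type. In this mixed tissue fewer cells of a type and less RNA per cell cannot be told apart. The part of the erythroid difference in the rRNA results was not tested.

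In total, rRNA fragments were about equally abundant in both libraries. Ago2ADH held 248756 rRNA reads (35304 RPM, 3.53% of the library) and wild type 257351 (33863 RPM, 3.39%). This gave a log2 ratio of 0.06 (0.05 to 0.07), a ratio of 1.04. Its sign depends on the scaling, since it was -0.051 when scaled to miRNA reads. More different rRNA reads were seen in Ago2ADH, with 25280 distinct sequences there, 22469 in wild type and 13335 in both. Over all reads the order was the other way, with 1187672 distinct sequences in Ago2ADH and 1372123 in wild type.

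The 3 names did not share 1 ratio. SSU reads stood at 23246 RPM in Ago2ADH and 21827 RPM in wild type, with a log2 ratio of 0.09 (0.08 to 0.10). LSU reads stood at 9694 RPM in Ago2ADH and 9199 RPM in wild type, with a log2 ratio of 0.08 (0.06 to 0.09). For 5S the levels were 2363 RPM in Ago2ADH and 2837 RPM in wild type, with a log2 ratio of -0.26 (-0.29 to -0.23). Thus 5S stood below wild type while the other 2 names stood slightly above it, and the interval of 5S does not reach those of SSU and LSU. Scaled to miRNA reads, SSU stood at -0.020 and LSU at -0.035, so their side of 0 depends on the scaling. The 5S value stayed below 0 in each alternative run, but by distinct reads its interval included 0. SSU made up 65.8% of rRNA reads in Ago2ADH and 64.5% in wild type, and 5S made up 6.69% in Ago2ADH and 8.38% in wild type. For comparison, log2 ratios were -0.14 for tRNA fragments, 0.23 for snRNA, -0.18 for scRNA, 0.32 for srpRNA and 0.11 for miRNA reads.

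The 18S reads were dominated by the first base of the molecule. Reads starting at position 1 numbered 108651 in Ago2ADH (15420 RPM) and 87662 in wild type (11535 RPM), with a log2 ratio of 0.42 (0.41 to 0.43). They made up 66.3% of SSU reads in Ago2ADH (Clopper-Pearson 95% interval 66.1 to 66.6) and 52.8% in wild type (52.6 to 53.1). Reads that start anywhere else on 18S, summed, numbered 55031 in Ago2ADH and 78033 in wild type, with a log2 ratio of -0.39. This sum rests mostly on the windows 1001 to 1050 and 1401 to 1450 in the plot of read starts along 18S. Without them the rest numbered 31242 in Ago2ADH and 36184 in wild type (-0.10, -0.12 to -0.081). The near-equal SSU total therefore adds a part above wild type to a part below it. Without the start at position 1, all rRNA reads together had a log2 ratio of -0.17 (-0.18 to -0.16).

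**Figure D1:**
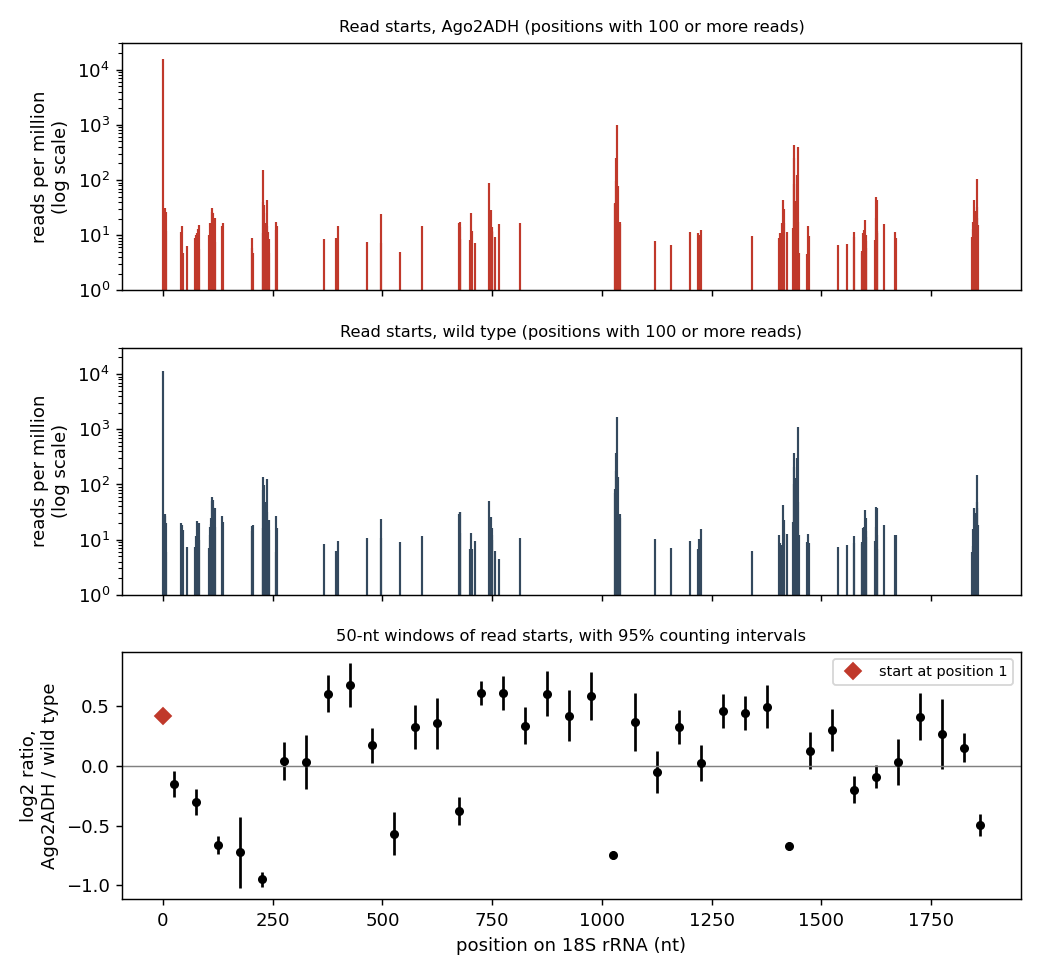
Read starts along 18S rRNA in RPM on a log scale, for Ago2ADH (top) and wild type (middle), at positions with 100 or more reads over both libraries. The bottom panel gives the log2 ratio (Ago2ADH over wild type) in 50-nt windows with 95% counting intervals, and the diamond the start at position 1; the lowest window, 201 to 250, lies at -0.95 and the diamond at 0.42.

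Fragments from the first base had preferred lengths of 21 and 18 nt. The 21-nt read had 61778 reads in Ago2ADH (8768 RPM) and 51986 in wild type (6840 RPM), with a log2 ratio of 0.36 (0.34 to 0.37). It was the most abundant rRNA fragment of both libraries. The 18-nt read had 27588 reads in Ago2ADH and 21537 in wild type, with a log2 ratio of 0.47 (0.44 to 0.49). The 15-nt read had 4368 reads in Ago2ADH and 2579 in wild type, and its log2 ratio of 0.87 (0.80 to 0.94) lay short of the limit used below. Reads of 16, 19 and 20 nt had 3808, 4608 and 3518 counts in Ago2ADH and 2604, 3732 and 2739 in wild type. Past 21 nt the reads thinned out to 427 in Ago2ADH and 425 in wild type at 22 nt. All 10 lengths with 100 or more reads had ratios above 0, from 0.12 to 0.88.

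**Figure D2:**
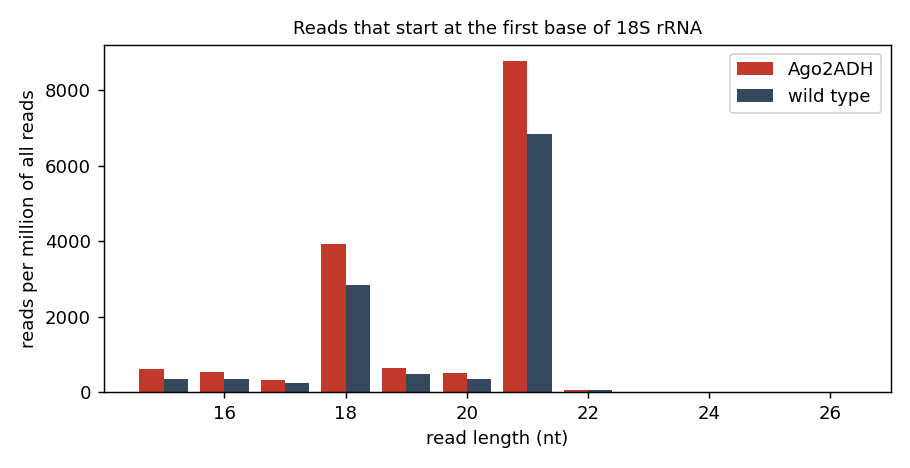
Level in RPM of 18S reads that start at the first base, by read length, with Ago2ADH (left bar) and wild type (right bar), 1 library each. The bars at 18 and 21 nt exceed the rest, and Ago2ADH is above wild type at both (8768 against 6840 RPM at 21 nt).

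Among reads that hold 15 or more bases of 18S at one of its mature ends, few ran across that end. Crossing reads with fewer bases of 18S were not counted, so the crossings are a lower bound. Over all classes of the table, 156 reads in Ago2ADH and 127 in wild type held the first 15 bases of 18S with further bases before them. Reads starting exactly at the first base numbered 111058 in Ago2ADH and 90385 in wild type. At the other end, 38 reads in each library ran past the last base, while 2279 in Ago2ADH and 3019 in wild type ended on it. The read covering positions 1856 to 1871, tgcggaaggatcatta, had the most reads of those ending on it, with 720 in Ago2ADH and 1117 in wild type. Its log2 ratio was -0.52. Reads with this end were not all below wild type: the 27-nt read from 1845 had 73 in Ago2ADH and 38 in wild type and met the rule used below for higher (1.05, 0.47 to 1.66).

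Single fragments were then compared by a size rule. A distinct read with 100 or more reads over both libraries was called higher or lower in Ago2ADH when its ratio was 2 or more, or 0.5 or less, and its interval excluded 1. Of the 34414 fragments, 302 reached the minimum, and these held 71.0% of all rRNA reads. The rule called 70 lower (23.2%) and 12 higher (3.97%), while 220 were not called. Scaling to miRNA reads moves every log2 ratio down by 0.11, so it can remove higher calls but no lower ones. With it all 70 were still lower, and 4 of the 12 were still higher. Among all 6956 distinct reads of the table with 100 or more reads, 11.3% were called lower and 7.39% higher. The median log2 ratio was -0.36 over the 302 rRNA fragments and 0.04 over the 6956 reads. The lower ones together had 7220 reads in Ago2ADH and 21182 in wild type, and the higher ones 2094 in Ago2ADH and 1045 in wild type. The 34112 fragments under the minimum summed to a log2 ratio of 0.04.

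The lower fragments were mostly 18S fragments. Among 170 tested SSU fragments, 56 were lower (32.9%) and 5 higher (2.94%), with a median log2 ratio of -0.67. Among 95 LSU fragments 10 were lower (10.5%) and 5 higher (5.26%), with a median of 0.02. Among 37 5S fragments 4 were lower (10.8%) and 2 higher (5.41%), with a median of -0.37. Neither name exceeded the shares over all tested reads, 11.3% lower and 7.39% higher. None of the 10 fragments from the first base of 18S was called. Lower fragments were mostly short, with a median of 19 nt, and 51 of the 70 had at most 20 nt. Short reads were common among all tested fragments, since 170 of the 302 had at most 20 nt and the median was 20 nt. The 12 higher ones had a median of 22 nt, with 5 of at most 20 nt and 5 of at least 26 nt. The fragments overlap heavily, since the 70 lower ones share 41 start positions.

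**Figure D3:**
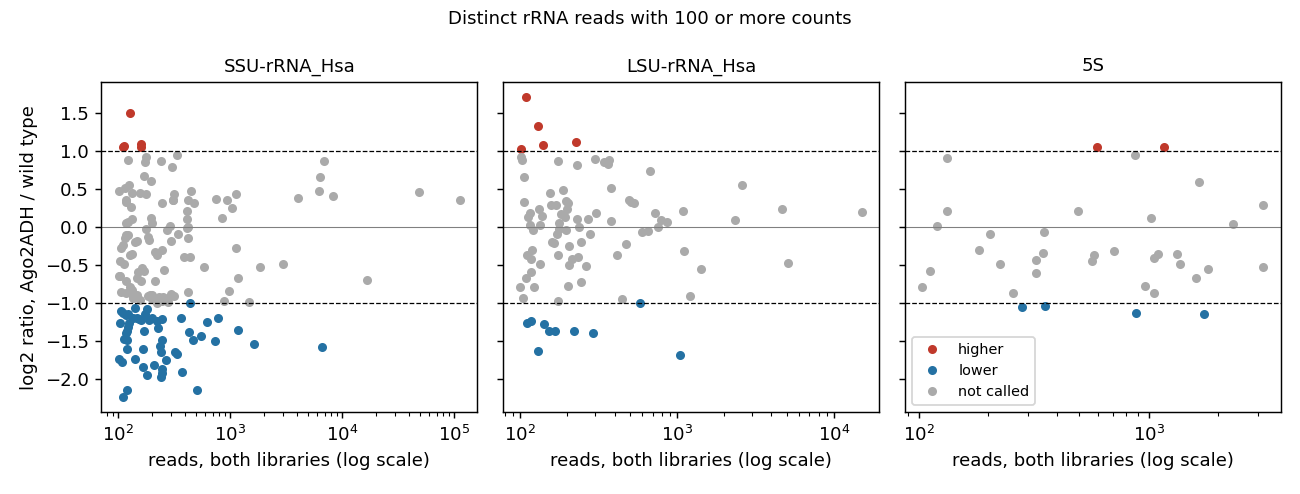
Log2 ratio (Ago2ADH over wild type) against the number of reads over both libraries (log scale) for the 302 distinct rRNA reads with 100 or more reads, in 1 panel per repeat name. Dashed lines mark ratios of 2 and 0.5; most of the 70 reads called lower lie in the SSU panel, while its most abundant read lies at 0.36.

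The lower 18S fragments lay in a few places. Each place was outlined by joining overlapping reads already called lower. Its counts of lower reads and its ratio therefore partly follow from that choice. Fixed 50-nt windows of starts gave -0.66 at 101 to 150, -0.95 at 201 to 250 and -0.38 at 651 to 700. They gave -0.74 at 1001 to 1050 and -0.67 at 1401 to 1450. The largest group covers positions 1440 to 1465, where 19 of 24 tested reads met the rule for lower and all 24 had ratios below 0. Reads within these bounds numbered 4944 in Ago2ADH and 14033 in wild type, with a log2 ratio of -1.40 (-1.44 to -1.35). Its leading read, positions 1446 to 1462, had 1581 reads in Ago2ADH (224 RPM) and 5108 in wild type (672 RPM), and fell by 1.58 on the log2 scale (-1.67 to -1.50). The read at 1443 to 1459 had 87 reads in Ago2ADH and 417 in wild type, with a log2 ratio of -2.15. Only 1 read fell further, at 234 to 256, with 18 reads in Ago2ADH and 92 in wild type (-2.24).

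Reads that begin only a few bases earlier behaved differently. Those starting at position 1446 numbered 2830 in Ago2ADH and 8477 in wild type, with a log2 ratio of -1.47. Those starting at 1438 numbered 3102 in Ago2ADH and 2801 in wild type, with a log2 ratio of 0.26 (0.18 to 0.33). Their order was thus reversed between the libraries. The 26-nt read from 1438 had 106 reads in Ago2ADH and 55 in wild type and met the rule for higher (log2 ratio 1.06, 0.57 to 1.55), but not when scaled to miRNA reads (0.95).

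At positions 229 to 257, 14 of 16 tested reads met the rule for lower, with lengths of 16 to 26 nt, and all 16 had ratios below 0. Reads within these bounds numbered 1599 in Ago2ADH and 4455 in wild type, with a log2 ratio of -1.37 (-1.45 to -1.29). The read at 237 to 256 had 115 reads in Ago2ADH and 348 in wild type (-1.49), and it matches the genome once. Reads starting at 228, 1 base before this place, numbered 1053 in Ago2ADH and 1051 in wild type (0.11). Positions 111 to 133 had 892 reads in Ago2ADH and 1962 in wild type (-1.03), and 8 of 12 tested reads there met the rule for lower, with all 12 below 0. Among them the read at 113 to 133 had 46 reads in Ago2ADH and 196 in wild type (-1.98). At 675 to 695 there were 233 reads in Ago2ADH and 562 in wild type (-1.16), and all 3 tested reads met the rule for lower.

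The most abundant place inside 18S, positions 1030 to 1056, had a ratio closer to 1. It held 10996 reads in Ago2ADH and 20291 in wild type, with a log2 ratio of -0.77 (-0.81 to -0.74), and 11 of 31 tested reads met the rule for lower, while all 31 had ratios below 0. Its main read, at 1035 to 1054, had 6135 reads in Ago2ADH (871 RPM) and 10769 in wild type (1417 RPM). Its log2 ratio of -0.70 (-0.75 to -0.66) did not meet the rule. Reads starting at 1033 numbered 1739 in Ago2ADH and 2829 in wild type (-0.59). It matches the genome once. Some reads lay close to the limit: 1035 to 1049 at -1.001 was called lower and 1032 to 1046 at -0.9985 was not.

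Counted over all of 18S, the places above included, most windows stood above wild type. Among 38 windows of 50 nt, starts after position 1 were above wild type in 25 and below it in 13, and no window met the size rule. The intervals of 19 windows lay above 0 and those of 11 below. The lowest ratios were -0.95 at 201 to 250 and -0.74 at 1001 to 1050, and the highest was 0.68 at 401 to 450. The window with the highest ratio was sparse, with 621 reads in Ago2ADH and 419 in wild type, while 1001 to 1050 held 11516 in Ago2ADH and 20816 in wild type. Other higher 18S fragments were the 15-nt read at 1627 to 1641, with 92 reads in Ago2ADH and 35 in wild type (1.503), and the 26-nt read at 742 to 767, with 107 in Ago2ADH and 54 in wild type (1.10, or 0.99 when scaled to miRNA reads). The 15-nt read at 7 to 21, with 74 reads in Ago2ADH and 38 in wild type (1.07, or 0.96 when scaled to miRNA reads), matches the genome 112 times.

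Under the LSU name, 28S reads were only partly included. The table also holds 14716 distinct reads that match no genome sequence and carry a RefSeq identifier of Rn28s1, the 28S gene. They summed to 158348 reads in Ago2ADH and 160800 in wild type, more than the LSU reads themselves, with a log2 ratio of 0.09. The LSU reads, 68307 in Ago2ADH and 69913 in wild type, are therefore only a part of the large-subunit rRNA reads in the table. Some of them also match other annotated genes, as given below.

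The most abundant LSU stretch runs to the 3′ end of 28S. Stretch 1 held 35.4% of LSU reads in Ago2ADH and 36.9% in wild type. Reads ending at its position 235 numbered 18498 in Ago2ADH and 18777 in wild type, with a log2 ratio of 0.09 (0.06 to 0.12). They were 27.1% of LSU reads in Ago2ADH and 26.9% in wild type. Over all classes, 74 reads in Ago2ADH and 57 in wild type held the 15 bases up to position 235 and ran on past the next base. Crossing reads with fewer of these bases were not counted. With this end shared, the ratio varied with the start but in no single direction with length. The 19-nt read from 217 had 7795 reads in Ago2ADH and 7301 in wild type, with a log2 ratio of 0.20 (0.16 to 0.25). The 17-nt read with the same end stood at 0.56. The 21-nt read from 215 had 2040 reads in Ago2ADH and 3060 in wild type, with a log2 ratio of -0.48 (-0.56 to -0.39), and the 20-nt read stood at -0.56. None of these 4 met the rule. Summed over lengths, reads with this end stood at 0.31 (0.25 to 0.37) at 15 to 18 nt, at -0.25 (-0.37 to -0.12) at 22 to 24 nt and at 0.71 (0.52 to 0.90) at 31 to 34 nt.

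In stretch 3 the end point of the reads shifted instead. Reads ending at position 436 fell to 906 in Ago2ADH, against 2231 in wild type (-1.19, -1.30 to -1.08). Reads ending 4 bases earlier, at 432, numbered 601 in Ago2ADH and 435 in wild type (0.58, 0.40 to 0.76). The read at 418 to 436 had 234 reads in Ago2ADH and 815 in wild type and fell by 1.69 on the log2 scale. The longer read at 415 to 440, which contains it, had 151 reads in Ago2ADH and 75 in wild type and rose (1.12, 0.71 to 1.54). Both match the genome once. Of the 10 lower LSU fragments, 7 lay at 413 to 436 of this stretch. Among the 302 tested fragments the highest ratio was also in stretch 3, at 230 to 251, with 82 reads in Ago2ADH and 27 in wild type (1.71, 1.07 to 2.40). In stretch 2 the 27-nt read at 367 to 393 rose, with 92 reads in Ago2ADH and 47 in wild type (1.08), a call lost when scaled to miRNA reads (0.97).

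Some reads named LSU match other annotated genes. Stretch 7 is mitochondrial: all of its reads match mt-Rnr2, the 16S rRNA gene of the mitochondrial ribosome, at chrM:1094-2675 (GRCm38, plus strand). It had 2253 reads in Ago2ADH and 1703 in wild type, with a log2 ratio of 0.51 (0.42 to 0.60), above the 0.06 of the other LSU reads. Reads that match within Lars2, the mitochondrial leucyl-tRNA synthetase gene at chr9:123366927-123462666 (plus strand), numbered 5339 in Ago2ADH and 6166 in wild type (-0.10). These match 28S-like sequence within the annotated gene, so whether they come from Lars2 or from 28S cannot be told apart. All 3 called ones lie in stretch 4. The read at 294 to 313 was higher, with 91 reads in Ago2ADH and 39 in wild type (1.33), and 2 reads at 126 to 144 were lower.

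For 5S, reads clustered at the 3′ end and differed between the libraries in where they stopped. Reads starting at position 90 or later made up 86.3% of 5S reads in both libraries. Those ending at position 121, the last base, numbered 6191 in Ago2ADH and 10148 in wild type, with a log2 ratio of -0.60 (-0.65 to -0.56). Those ending at 110 numbered 5833 in Ago2ADH and 4656 in wild type, with a log2 ratio of 0.43 (0.38 to 0.49). In Ago2ADH both ends were about equally used, at 37.2% of 5S reads for position 121 and 35.03% for position 110. In wild type the last base was used more, at 47.1% against 21.6% for position 110. Neither end met the size rule as a whole.

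Most single 5S fragments stood on the same side of 0 as their shared end, but the shares called did not exceed those over all reads. Ending at 110, the reads from 91 (766 in Ago2ADH, 397 in wild type) and from 89 (394 in Ago2ADH, 205 in wild type) were called higher, with log2 ratios of 1.06 and 1.05. Both were under the limit when scaled to miRNA reads, at 0.95 and 0.94. The read from 93 had 1682 reads in Ago2ADH and 1479 in wild type (0.29) and that from 94 had 1143 in Ago2ADH and 1193 in wild type (0.05). Of 9 tested fragments with this end, 7 stood above 0. Ending at 121, the read from 103 had 1240 reads in Ago2ADH and 1921 in wild type (-0.52, -0.63 to -0.42). The 16-nt read from 106 fell, with 511 reads in Ago2ADH and 1224 in wild type (-1.15). Of 28 tested fragments ending at 119 to 121, 24 stood below 0 and 4 met the rule for lower. Starts at 97 and 96 stood at -0.49 and -0.48. As the shortest reads have 15 nt, those from 96 can end at 110 but those from 97 cannot. Away from the 3′ end, reads ending at position 39 fell to 55 in Ago2ADH, against 242 in wild type (-2.03, -2.48 to -1.60).

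**Figure D4:**
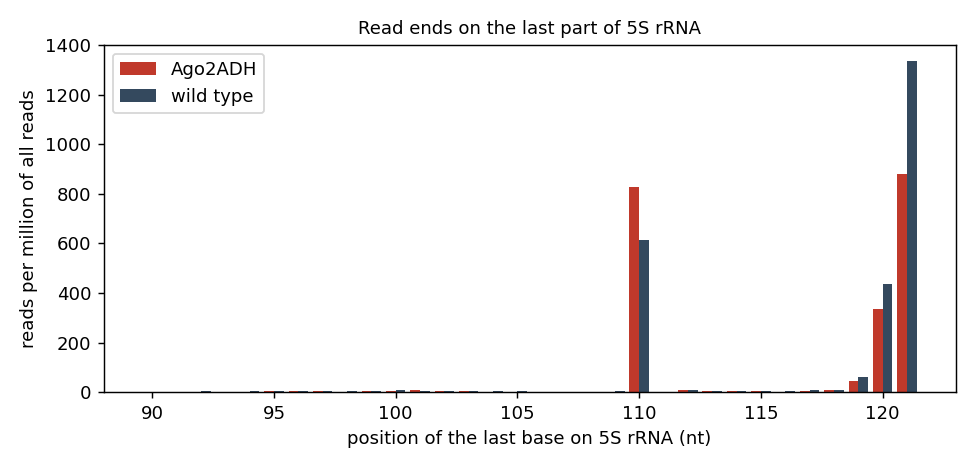
Level in RPM by the position of the last base on 5S rRNA, from position 90 on, for Ago2ADH (left bar) and wild type (right bar), 1 library each. At position 110 Ago2ADH stands above wild type (828 against 613 RPM), and at position 121 below it (879 against 1335 RPM).

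Reads that pass the last 5S base were a minority. Over all classes, 801 in Ago2ADH and 1009 in wild type ran past position 121, while 6387 in Ago2ADH and 10609 in wild type ended on it. Of those that passed it, 362 in Ago2ADH and 466 in wild type carried 1 more T and nothing else. RNA polymerase III ends transcripts within a run of T in the gene.

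The most common read length differed between the names. SSU reads peaked at 21 nt (39.5% in Ago2ADH, 33.8% in wild type) with a second peak at 18 nt (19.7% in Ago2ADH, 17.1% in wild type). LSU reads peaked at 19 nt (18.51% in Ago2ADH, 19.1% in wild type) and 5S reads at 18 nt (18.7% in Ago2ADH, 17.1% in wild type). All 3 peaks lie below the 22 nt typical of miRNAs. The SSU and LSU peaks rest largely on single reads. The 18S read from position 1 made up 61778 of 64762 SSU reads of 21 nt in Ago2ADH, and 51986 of 56147 in wild type. At 18 nt the read from position 1 made up 27588 of 32276 in Ago2ADH and 21537 of 28370 in wild type. The read at 217 to 235 made up 7795 of 12643 LSU reads of 19 nt in Ago2ADH, and 7301 of 13349 in wild type.

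Long rRNA reads were more abundant in Ago2ADH than in wild type. At 28 to 34 nt there were 10394 reads in Ago2ADH (1475 RPM) and 6967 in wild type (917 RPM), with a log2 ratio of 0.69 (0.64 to 0.73). The value was 0.68 for SSU, 0.72 for LSU and 0.03 (-0.24 to 0.30) for 5S. At 31 to 34 nt it reached 1.31 for SSU, with 635 reads in Ago2ADH and 277 in wild type, and 0.94 for LSU, with 1451 in Ago2ADH and 816 in wild type. The Rn28s1 reads outside the genome stood at 0.89 at 28 to 34 nt and at -0.55 at 15 to 18 nt. Among other reads of 28 to 34 nt, the log2 ratio was 0.17 for all reads outside the repeat-track rRNA class and the miRNA class. That set still includes the Rn28s1 reads. It was 0.19 for mRNA fragments, while tRNA fragments stood below 0 at -0.04. At 31 to 34 nt these sets stood at 0.26, 0.50 and 0.02.

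At the short end, 18S reads not starting at position 1 stood at -0.65 at 15 to 18 nt (18528 in Ago2ADH, 31348 in wild type) and at -0.57 at 19 to 21 nt. Reads from the first base of 18S stood at 0.52 at 15 to 18 nt. At these lengths SSU as a whole was therefore at 0.02, LSU at -0.05 and rRNA as a whole at -0.02, while all reads of the table stood at -0.23. Lengths of 15 to 18 nt lie below the 19 to 30 nt aimed at on the gel, and those of 31 to 34 nt above it. The part of this general shift in length in the rRNA differences, and in the calls of short reads, was not tested.

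**Figure D5:**
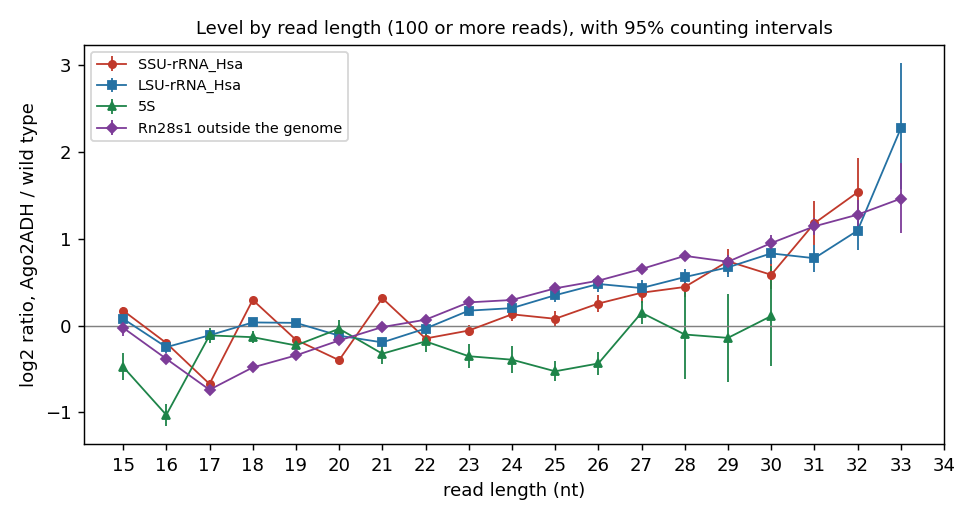
Log2 ratio (Ago2ADH over wild type) by read length for the 3 rRNA names and for Rn28s1 reads outside the genome, at lengths with 100 or more reads over both libraries, with 95% counting intervals. SSU, LSU and Rn28s1 reads lie above 0 from 26 nt on and 5S reads do not follow; SSU dips to -0.67 at 17 nt and stands at 0.32 at 21 nt.

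Fragments of mRNAs for rRNA synthesis and processing were counted in the same table. Of 30 listed genes, all 30 had reads and 6 reached 100 reads. None of the 6 was called higher or lower, where 0.391% of 3329 genes were called higher and 0.511% lower. Their median log2 ratio was -0.23, against 0.004 over all genes tested. Ncl, encoding nucleolin of the nucleolus, had 1567 reads in Ago2ADH and 1947 in wild type (-0.20, -0.30 to -0.11). Nop56, a core protein of the small nucleolar RNPs that guide rRNA methylation, had 879 reads in Ago2ADH and 1174 in wild type (-0.31). Npm1, the nucleolar protein nucleophosmin, had 62 reads in Ago2ADH and 117 in wild type (-0.81, -1.28 to -0.35). For Polr1a, the largest subunit of RNA polymerase I, Ubtf, its transcription factor, and Nop58, the partner of Nop56, the intervals included 0, at log2 ratios of -0.25, 0.11 and -0.09. Fragments of an mRNA depend on its breakdown as well as its level.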

How the data were processed

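Per the labels' protocols, total RNA of fetal liver was separated on a gel, ligated to adapters, amplified by RT-PCR and sequenced, with 1 library per genotype. The authors deposited raw counts, 1 per distinct read and library, with no normalization; each read has a number of genome matches, a class and a name. Steps of alignment and trimming, and the build, were not given in the sources used here. It holds 0 columns of other samples.

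The members and lists were chosen with earlier results of these data known. Counts were scaled to all reads, 7046197 in Ago2ADH and 7599870 in wild type, so that 3 reads equal 0.426 and 0.395 RPM. Ratios have exact conditional binomial intervals and shares exact Clopper-Pearson ones, at 95%. With 1 library per genotype no p-value was computed. Stretches were built by joining rRNA reads that overlap by 11 nt or more. Simulated counts with known ratios served to test the size rule.

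Named fragments are the 10 with most reads, the 3 with most reads per name, and up to 10 largest decreases and increases under the size rule; for starts, the 5 with most reads per name. Other fragments, ends, windows and places were chosen after their values were seen. Tools were python 3.11.15, numpy 2.4.6, pandas 2.3.3, scipy 1.17.1 and matplotlib 3.10.9, with GENCODE M21 and RefSeq (GRCm38) for gene positions. Alternatives were other scalings, read subsets, read minimums and ratio limits. Sequences of 5S are not reported here.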

Additional observations from a re-analysis of the deposited data

How the results depend on the processing

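No paired analysis was possible because each genotype has 1 library, and for the same reason no library could be left out. The log2 ratio of all rRNA reads was -0.051 scaled to miRNA reads, 0.13 scaled to reads outside the miRNA class, 0.11 scaled to repeat-track reads other than rRNA, 0.015 by median of ratios, 0.072 from reads of 19 to 30 nt, -0.22 from reads with 1 genome match, 0.38 from distinct reads and -0.11 without the 10 most abundant rRNA reads. In the same order SSU gave -0.020, 0.16, 0.15, 0.046, 0.10, -0.40, 0.37 and -0.25. LSU gave -0.035, 0.14, 0.13, 0.031, 0.092, 0.10 and 0.42, and 0.08 without the 10 reads. 5S gave -0.37, -0.19, -0.21 and -0.31 under the 4 scalings, -0.49 from reads with 1 genome match and -0.065 from distinct reads. Its value stayed below 0 in every alternative, but by distinct reads its interval included 0. The 5S value rests on 199 reads over both libraries where 1 genome match is required.

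The share of 19 to 21 nt in SSU reads was 21.8% in Ago2ADH and 25.6% in wild type without the 10 reads, and was 22.8% in Ago2ADH and 25.2% in wild type by distinct reads. For LSU it was 22.7% in Ago2ADH and 26.2% in wild type without the 10 reads, and 22.8% in Ago2ADH and 24.9% in wild type by distinct reads. For 5S it was 23.5% in Ago2ADH and 23.9% in wild type by distinct reads. Reads of 19 to 30 nt gave the 18S start at position 1 a share of 66.3% in Ago2ADH and 55.9% in wild type, the LSU start at 217 a share of 16.6% in Ago2ADH and 15.6% in wild type, and the 5S start at 103 a share of 12.1% in Ago2ADH and 14.7% in wild type. By distinct reads the 3 starts held 0.172%, 0.0345% and 0.557% in Ago2ADH and 0.192%, 0.0399% and 0.369% in wild type, since 1 start allows few lengths.

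The counts of called fragments followed the limits. Higher and lower were 39 and 149 at a minimum of 50 reads, 3 and 35 at 200 reads, 35 and 119 at a ratio limit of 1.5, and 1 and 21 at a limit of 3. Scaled to miRNA reads 4 were higher and 91 lower, by median of ratios 11 and 77, and with reads of the same start summed 14 and 49. In each of these more were lower than higher. The size rule over all 6956 distinct reads tested also called more lower (784) than higher (514). That background was not computed for the alternatives. Of 34 named fragments, 6 lost their call when scaled to miRNA reads, and none reversed. That scaling moves every log2 ratio down by 0.11, which can remove a higher call but cannot remove a lower one or reverse any. All 6 had been called higher, out of 10 named higher ones: 3 of SSU, 2 of 5S and 1 of LSU.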
